A study of Rattus norvegicus with 12 samples.

Results

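Gene expression in the renal cortex was compared between congestive and control kidneys on 6 arrays, 3 per group, taken from a series of 12 arrays whose other 6 hold the outer medulla. The 6 cortex arrays are those whose title starts with Cx. The rats were males of the Sprague-Dawley strain, aged between 7 and 9 weeks and weighing between 250 and 350 g. They had the inferior vena cava (IVC) tied off completely between the renal veins, and both kidneys were taken on day 3. The left kidney, upstream of the ligature, is the congestive kidney, and the right kidney of the same rat is the control kidney. Each rat thus gave 1 pair of cortices, and pairs are numbered 1 to 3 after the titles. Both kidneys went through the same anesthesia, laparotomy and IVC ligation. The control kidney is therefore the other kidney of an operated rat and shares its circulation. The congestive kidney is always the left one, so congestion and body side cannot be told apart on these arrays. None of the 12 arrays holds a kidney of an unoperated or sham-operated rat.

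Renal congestion is the backing up of venous blood into the kidney, as happens when central venous pressure is high in heart failure. The kidney lies in a tight capsule, so venous filling raises the pressure around its tubules and peritubular capillaries, and flow through both falls. The cortex holds the glomeruli, most of the proximal tubule, the cortical thick ascending limb, the distal convoluted tubule and the first part of the collecting duct, with a thin interstitium of capillaries, pericytes, fibroblasts and resident macrophages. Injured proximal tubule cells are known to switch on surface and secreted proteins that the healthy tubule hardly makes, among them the phosphatidylserine receptor Havcr1 (kidney injury molecule 1), and pericytes are known to detach from capillaries and turn into matrix-producing myofibroblasts.

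Levels are log2 values of RNA that the authors normalized between arrays, and a difference of 1 is 2-fold. A set of 3 levels or changes is given in the order of pairs 1, 2 and 3. The medians of the cortex arrays lay between 6.02 and 6.06, and arrays of 1 condition correlated across rows with a Pearson's r of 0.989 to 0.991. The region label was borne out by markers: the podocyte gene Nphs1 had a mean control level of 8.28 in cortex and 6.47 in outer medulla, and the distal convoluted tubule gene Slc12a3 had 11.56 and 7.91. Slc7a13, an amino acid transporter of the straight proximal tubule near the medulla, measured 8.65, 10.46 and 6.44 in the control and 7.94, 9.24 and 7.30 in the congestive cortices, against a mean of 13.01 in control outer medulla. Its level thus differed more between rats than between the kidneys of a rat, with overlapping groups, and the part of tissue next to the medulla in the results was not tested.

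Of 18166 genes with a named row, 1449 had higher levels in the congestive than in the control cortex (7.98%) and 661 had lower levels (3.64%) at an adjusted p below 0.05 (11.6% in all). A gene past this threshold, in a limma fit with the pair as a block, is called higher or lower here, or is said to rise or fall. The shares of 7.98% and 3.64% apply beside every list count below, and a list with shares near them does not stand out. The spread of each gene was estimated over the pairs of both regions together. A standard error (SE) or a missing call can therefore also reflect spread in outer medulla. No called gene had a pair that moved the other way. The rises were larger than the falls. Among called genes 237 rose and 31 fell by at least 2-fold, 11 rose and 7 fell by at least 4-fold, and the median change was 0.59 for the genes called higher and -0.43 for those called lower, against -0.02 over all genes. The 3 congestive arrays did not overlap the 3 control arrays for 6175 genes (34%, either direction), called or not, so a lack of overlap was common.

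The kidneys differed in how strongly they had changed. Over the genes called higher the median change was 0.49, 0.72 and 0.58 in pairs 1, 2 and 3, and over the genes called lower it was -0.40, -0.50 and -0.41. In pair 2, 393 genes were higher and 109 lower by at least 2-fold, compared with 180 and 36 in pair 1 and 233 and 36 in pair 3. The number of calls depended on the pairs used, with 1167, 602 and 738 genes called higher and 394, 131 and 176 called lower without pair 1, 2 and 3, and 557 higher and 90 lower in each of these 3 fits. Of the genes called higher in these fits, 1143 of 1167, 600 of 602 and 730 of 738 were also higher in the omitted pair, where 46.23%, 49.11% and 46.97% of all genes were higher. Of the genes called lower, 326 of 394, 126 of 131 and 161 of 176 were also lower in the omitted pair, where 53.75%, 50.87% and 53.02% of all genes were lower. Dim genes were seldom called. With genes split by control level into 4 bins of equal size, 2.38% of the dimmest bin were called higher, against 11.05%, 12.27% and 6.21% of the next bins, whereas the share called lower grew from 1.94% in the dimmest to 7.13% in the brightest bin. In the outer medulla of the same series 2150 genes (11.8% of all) were called higher and 2057 (11.3%) lower. The genes called higher in both regions numbered 1122, which is 77.43% of the cortex genes and 52.19% of the outer medulla genes, and those called lower in both numbered 361, or 54.61% and 17.55%. The calls of both regions share the spread of each gene in the fit, so these shares do not come from independent tests.

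**Figure D1:**
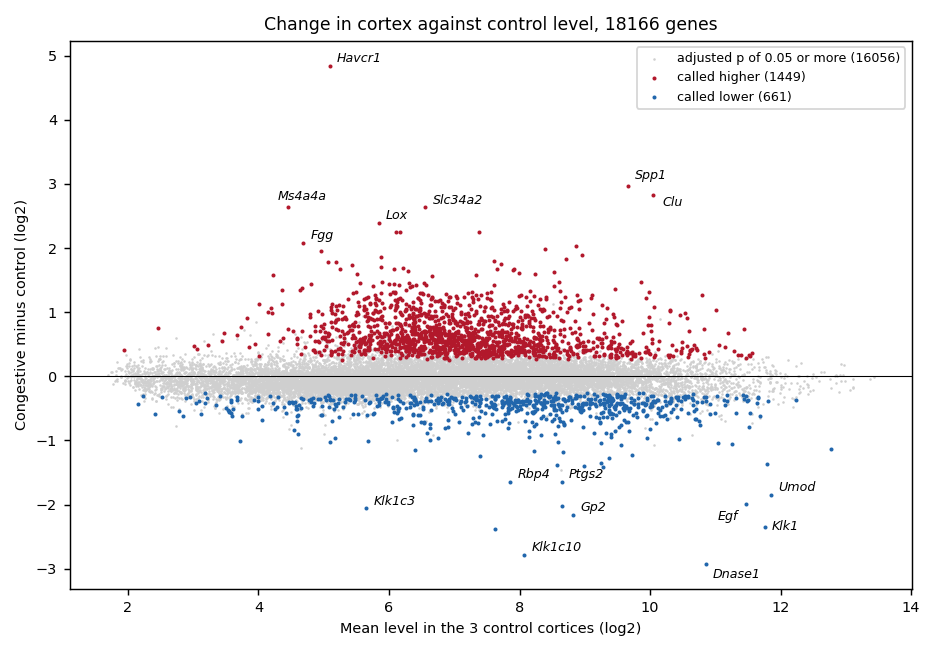
The change in cortex (congestive minus control, log2, vertical axis) is plotted against the mean level in the 3 control cortices (log2, horizontal axis), 1 point per gene, with the 1449 genes called higher in red, the 661 called lower in blue and the others in grey. Havcr1 stands alone at the top, and the kidney-made secreted proteins Dnase1, Klk1, Egf and Umod fell from high control levels.

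The largest rise was that of Havcr1. It measured 4.94, 5.77 and 4.56 in the control and 9.21, 10.94 and 9.65 in the congestive cortices. The lowest congestive cortex thus lay far above the highest control cortex. The change was 4.85 ± 0.29 on the log2 scale (SE of the fit, 3 pairs, adjusted p = 0.000179), or 28.7-fold on these values. The control mean of 5.09 lies in the dimmest of the 4 bins, and how far it stands above background is not known. Spp1 (osteopontin), a secreted phosphoprotein that binds integrins and calcium crystals, measured 9.87, 9.55 and 9.56 in the control and 12.53, 12.67 and 12.67 in the congestive cortices. Clu (clusterin), a secreted chaperone made by injured tubules, measured 10.04, 10.04 and 10.07 in the control and 12.84, 12.87 and 12.92 in the congestive cortices, so that neither gene's groups came near each other. Spp1 was 7.83-fold higher (2.97 ± 0.12, adjusted p = 5.6e-05) and Clu 7.09-fold higher (2.83 ± 0.08, adjusted p = 8.38e-06), from control levels that were already high.

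Slc34a2, a sodium phosphate cotransporter best known from lung and gut, measured 6.67, 6.95 and 6.05 in the control and 8.83, 9.55 and 9.20 in the congestive cortices. This was a rise of 2.64 ± 0.22 (adjusted p = 0.000434). The usual proximal tubule member of the same family, Slc34a1, measured 13.04, 12.97 and 12.96 in the control and 12.97, 12.88 and 12.87 in the congestive cortices and was not called (-0.08, adjusted p = 0.836). The macrophage membrane genes Ms4a4a (2.63 ± 0.14), Gpnmb (2.26 ± 0.26) and Mrc1 (2.25 ± 0.10, the mannose receptor) rose more than 4-fold, as did Lox, which crosslinks collagen and elastin (2.40 ± 0.17), Timp1, an inhibitor of matrix proteases (2.25 ± 0.14), the fibrinogen gamma chain Fgg (2.08 ± 0.17) and fibronectin, Fn1 (2.04 ± 0.09). Tagln (transgelin), an actin-binding protein of smooth muscle and myofibroblasts, closed the 12 largest rises at 1.99 ± 0.15, with 8.32, 8.72 and 8.13 in the control and 10.30, 10.73 and 10.09 in the congestive cortices. All 12 kept their call without each pair in turn, and in none did the groups overlap. The control means of Ms4a4a (4.46) and Fgg (4.68) lie in the dimmest bin, so the limit given for Havcr1 holds for them too.

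The largest fall was that of Dnase1, an endonuclease that digests free DNA and is released into urine. It measured 10.90 and 10.67 in the control cortices of pairs 2 and 3, with pair 1 slightly above them, and 8.87, 7.02 and 7.91 in the congestive cortices. The congestive cortices spread over a wider range than the controls but stayed below them, and the fall was 7.58-fold (-2.92 ± 0.28, adjusted p = 0.000752). The pro-growth peptide Egf, made by the thick ascending limb and distal convoluted tubule, measured 11.59, 11.48 and 11.34 in the control and 10.17, 9.06 and 9.22 in the congestive cortices. Umod (uromodulin), the most abundant protein of normal urine and a product of the thick ascending limb, measured 11.91, 11.93 and 11.74 in the control and 10.02, 10.34 and 9.66 in the congestive cortices. Both fell without overlap, Egf by 1.99 ± 0.20 (adjusted p = 0.000942) and Umod by 1.85 ± 0.11 (adjusted p = 0.000173). In RNA of whole tissue, fewer cells of a type and less RNA per cell cannot be told apart.

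The other large falls were Gp2, a homolog of uromodulin (-2.17 ± 0.22), Hrg, a plasma glycoprotein that binds heparin and plasminogen (-2.02 ± 0.32), Rbp4, the retinol carrier (-1.64 ± 0.20), Ptgs2, the inducible cyclooxygenase of prostaglandin synthesis (-1.65 ± 0.15), and Gldc of glycine cleavage (-1.42 ± 0.16). The remaining 4 were tissue kallikreins. Of the 12 largest falls, Klk1 was the exception that lost its call when a pair was left out (adjusted p = 0.103 without pair 2 and 0.0754 without pair 3).

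**Figure D2:**
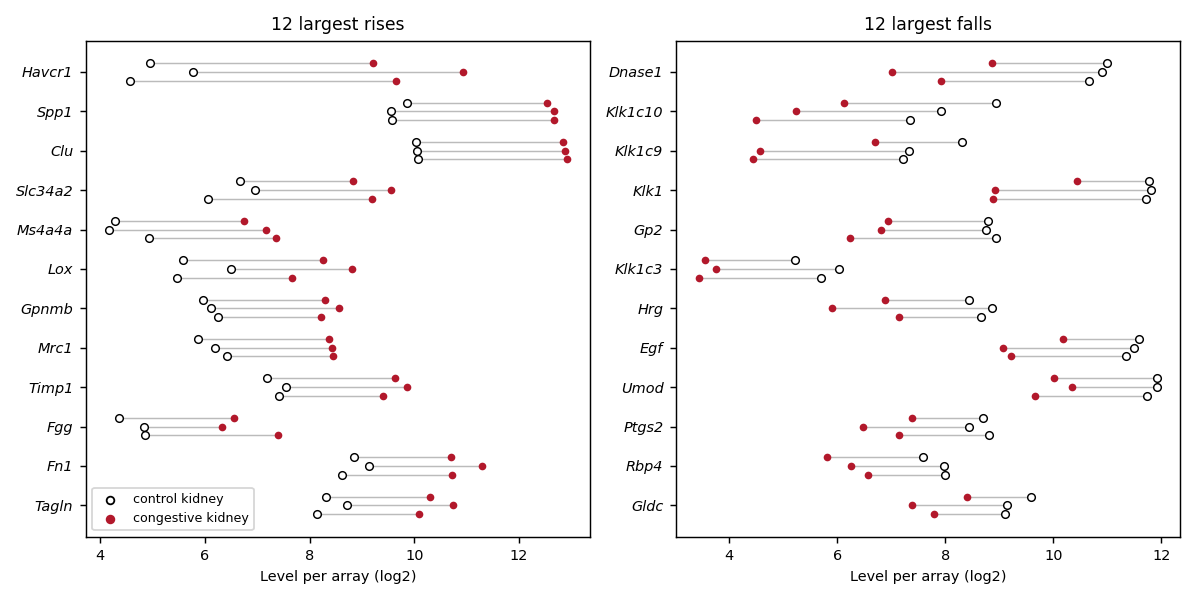
Each point is 1 array, with the level (log2) on the horizontal axis and the 12 genes with the largest rise (left) and the largest fall (right) in rows. Open points are control and red points congestive cortices, and a line joins the 2 kidneys of a pair (pairs 1 to 3 from top to bottom in each row). In each of the 24 genes shown all congestive cortices lie on 1 side of all control cortices.

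Along the nephron, the changes in marker genes differed from segment to segment. Of the podocyte genes, 2 of 11 measured were called higher and 0 lower, with a median change of -0.01 (2 lower after quantile normalization or with dim genes left out). The risers were Tcf21, a transcription factor of podocytes and of stromal cells (1.02 ± 0.08), and Kirrel1, a slit diaphragm protein (0.61), whose call was lost without pair 2 (adjusted p = 0.0533). Both changed more in outer medulla, by 1.93 and 1.48 (adjusted p of the difference 0.0146 and 0.0286). There 6 genes of this list were called higher and 2 lower, and the cells behind these rises were not tested. Nphs1 (nephrin), the core of the slit diaphragm, measured 8.41, 8.25 and 8.19 in the control and 8.08, 7.92 and 8.08 in the congestive cortices. The groups did not overlap, but the difference of -0.26 did not pass (adjusted p = 0.0734). Des (desmin), an intermediate filament used as a sign of podocyte injury in the rat and also made by pericytes, measured 7.29, 7.44 and 7.35 in the control and 7.64, 8.14 and 7.81 in the congestive cortices, with no overlap and no call (0.51, adjusted p = 0.0646).

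For the proximal tubule, 0 of 36 transporters were called higher and 0 lower, with a median of -0.11, and of the 29 enzymes 0 were higher and 1 lower, with a median of -0.22. The brightest members barely moved. The endocytic receptor Lrp2 (megalin) differed by 0.03 and the inositol oxygenase Miox by -0.08. The 1 called gene was Asl, the argininosuccinate lyase of renal arginine synthesis, with 9.78, 9.86 and 10.24 in the control and 8.92, 8.68 and 9.37 in the congestive cortices. It fell by 0.97 ± 0.11 (adjusted p = 0.00181), and the groups did not overlap. These counts depended on the outer medulla arrays that share the error estimate. In a fit on the cortex arrays alone 5 transporters and 4 enzymes were called lower. Among the 5 were the neutral amino acid transporter Slc6a19, with 10.67, 10.64 and 10.98 in the control and 10.20, 9.93 and 10.43 in the congestive cortices, the lactate transporter Slc5a12 and the basolateral amino acid transporter Slc7a7, named after their values were seen. Their changes were -0.57, -0.43 and -0.44, with no overlap of the groups.

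The thick ascending limb, which reabsorbs salt without water, had the most falls of any segment: 10 of 17 markers were lower and 2 higher, with a median of -0.47 (9, 6 and 7 lower without pair 1, 2 and 3). Besides Egf and Umod, the falls included Tmem207, a membrane protein of unclear role (-1.39 ± 0.08), Kcnj10, a basolateral potassium channel (-1.16 ± 0.11), and Ppp1r1a, a phosphatase inhibitor (-1.07 ± 0.08). The defining transporter of the segment, Slc12a1, the target of loop diuretics, measured 10.56, 10.61 and 10.32 in the control and 10.34, 10.32 and 10.14 in the congestive cortices. The groups overlapped and it was not called (-0.23, adjusted p = 0.105). Cldn19, which with claudin 16 forms the pore for calcium and magnesium, rose by 0.86 ± 0.10 (adjusted p = 0.00135). The prostaglandin receptor Ptger3 also rose (0.45), a call lost without pair 2 or 3 (adjusted p = 0.0648 and 0.0972). Cldn16, the partner of Cldn19, fell by 0.32 (adjusted p = 0.0446), with no call without any 1 pair (0.145, 0.144 and 0.161).

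In the distal convoluted tubule, the site of fine tuning of sodium, calcium and magnesium, 7 of 16 markers were lower and 1 higher, with a median of -0.41. The count of falls was 5, 1 and 3 without pair 1, 2 and 3. The kinase Wnk1, which controls the thiazide-sensitive cotransporter, measured 11.72, 11.65 and 11.70 in the control and 11.26, 10.85 and 11.09 in the congestive cortices. It fell by 0.62 ± 0.09 (adjusted p = 0.00398) in all fits, without overlap. The cotransporter itself, Slc12a3, measured 11.67, 11.46 and 11.56 in the control and 11.05, 10.35 and 11.11 in the congestive cortices. These did not overlap either, but the difference of -0.73 was not called (adjusted p = 0.204).

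The called genes of calcium reabsorption named here went both ways, and none kept its call in every fit without a pair. The cytosolic calcium carrier Calb1 measured 11.83, 11.88 and 11.68 in the control and 11.03, 9.58 and 10.69 in the congestive cortices and fell by 1.36 ± 0.31 (adjusted p = 0.0288, but 0.146 without pair 2 and 0.0659 without pair 3). The basolateral exchanger Slc8a1 (-0.85) and the magnesium channel Trpm6 (-0.70) fell too, with no call without any 1 pair for Slc8a1 (adjusted p = 0.0618, 0.187 and 0.0637) and without pair 1 or 2 for Trpm6 (0.0686 and 0.126). The apical calcium channel Trpv6 measured 5.01, 5.34 and 5.16 in the control and 5.84, 5.73 and 6.48 in the congestive cortices, a rise of 0.85 (adjusted p = 0.0144, and 0.0546 and 0.0621 without pair 1 and 3). Its control mean of 5.17 lies in the dimmest bin. Its close relative Trpv5, named after its values were seen, measured 8.42, 8.47 and 8.62 in the control and 9.22, 9.69 and 9.99 in the congestive cortices. Every congestive cortex was above every control cortex, but the model did not call it (1.13, adjusted p = 0.101).

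In the collecting duct, principal cells, which take up water and sodium, had 6 of 16 markers lower and 0 higher, with a median of -0.31. This count rested on all pairs, with 3, 1 and 0 without pair 1, 2 and 3, and was 1 with no pair block. The water channel Aqp2 measured 10.27, 10.26 and 10.42 in the control and 10.02, 9.69 and 9.57 in the congestive cortices and fell by 0.56 ± 0.11 (adjusted p = 0.0169, but 0.102 and 0.0966 without pair 2 and 3). The alpha and beta subunits of the epithelial sodium channel, Scnn1a and Scnn1b, fell by 0.50 and 0.40, and neither kept its call when any 1 pair was left out (adjusted p = 0.0587, 0.174 and 0.0695 and 0.0748, 0.213 and 0.111). Intercalated cells, which secrete acid or base, had 7 of 16 markers lower and 0 higher, with a median of -0.34 and 6, 5 and 4 calls without pair 1, 2 and 3. All 16 changes were negative. The chloride-bicarbonate exchanger Slc4a1 measured 9.43, 9.29 and 9.47 in the control and 8.53, 8.24 and 8.59 in the congestive cortices, which did not overlap, and fell by 0.94 ± 0.08 (adjusted p = 0.000462). The ammonia channels Rhcg (-0.66) and Rhbg (-0.64) and the proton pump subunits Atp6v1b1 (-0.61) and Atp6v0d2 (-0.58) fell as well, and of these Atp6v1b1 lost its call without pair 2 or 3 (adjusted p = 0.0525 and 0.0509). Beside these falls, the mean level of the macrophage markers described below rose in the same arrays, and its part in the falls was not tested.

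**Figure D3:**
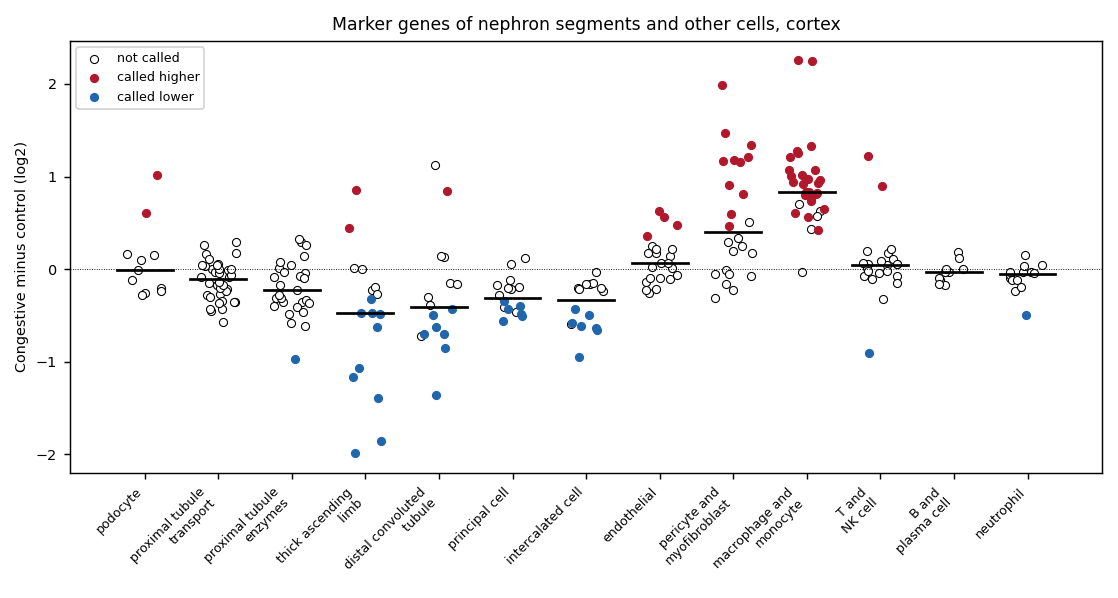
Each point is 1 marker gene, with its change (congestive minus control, log2) on the vertical axis and the nephron segment or cell type on the horizontal axis. Filled points are called genes (red higher, blue lower) and the bar is the median of the measured markers. The median is lowest for the thick ascending limb at -0.47 and highest for macrophages at 0.83.

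Genes of the mitochondrial respiratory chain were lower together by small amounts. All 33 measured subunits of complex I, where NADH enters the chain, had negative changes, and 12 were called lower (0 higher), with a median of -0.30. In 32 of them the groups did not overlap, against 34% of all genes in either direction. Of the 34 subunits of complexes II to V, 34 were negative, 33 without overlap, and 10 were called lower (0 higher), with a median of -0.31. The mean level over the complex I subunits was 9.85, 9.86 and 9.87 in the control and 9.62, 9.45 and 9.55 in the congestive cortices, so the fall was smallest in pair 1 and largest in pair 2. The counts depended on the pairs used, with 6, 1 and 2 complex I subunits and 8, 0 and 0 subunits of the other complexes called without pair 1, 2 and 3. Other settings raised them: with no pair block 20 and 18 were called, with dim genes left out 24 and 22, and under eBayes with trend and robust options 26 and 30. Macrophage markers were higher in the same arrays, and their part in these falls was not tested.

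Ndufb10 of complex I measured 8.96, 8.89 and 8.99 in the control and 8.57, 8.29 and 8.48 in the congestive cortices. It fell by 0.50 ± 0.07 (adjusted p = 0.00495), kept in each fit. Cox5b of cytochrome oxidase measured 10.26, 10.33 and 10.32 in the control and 9.96, 9.78 and 9.91 in the congestive cortices and fell by 0.42 ± 0.08 (adjusted p = 0.0147, but 0.106 and 0.08 without pair 2 and 3). In neither gene did the groups overlap. Of the citric acid cycle and pyruvate entry list 6 of 21 were lower and 1 higher, with a median of -0.25, and 0, 0 and 0 were lower without pair 1, 2 and 3, 3 on cortex arrays alone and 13 with trend and robust options. The falls included Sucla2 (-0.41), Idh2 (-0.38) and Ogdh (-0.30), all enzymes of the cycle. The gene that rose was Pdk4, the kinase that shuts pyruvate dehydrogenase (0.64, adjusted p = 0.0105, and 0.0513 and 0.0834 without pair 1 and 2).

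Genes of fatty acid oxidation were mixed, with 3 of 35 lower, 1 higher and a median of -0.13 (2, 1 and 1 lower without pair 1, 2 and 3, and 7 with trend and robust options). Ppara, the nuclear receptor that drives this pathway, measured 9.70, 9.31 and 9.96 in the control and 8.98, 8.53 and 9.34 in the congestive cortices. The groups overlapped, but the congestive kidney was lower in each pair, by 0.71 ± 0.10 in the fit (adjusted p = 0.00415). In glycolysis 1 of 11 genes was higher (Hk2, hexokinase 2, 0.50) and 2 were lower (Pfkm, -0.44, and Pgk1, -0.31). Hk2 and Pfkm lost their calls without pair 1 (adjusted p = 0.106 and 0.0582) and without pair 2 (0.177 and 0.0867), and Pgk1 lost its call without any 1 pair (0.0839, 0.155 and 0.145).

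Of the genes of amino acid breakdown 13 of 38 were lower and 1 higher, with a median of -0.35 (6, 2 and 3 lower without pair 1, 2 and 3). Gldc, a subunit of the glycine cleavage system, measured 9.58, 9.15 and 9.11 in the control and 8.40, 7.38 and 7.79 in the congestive cortices. The groups stood apart, and it fell by 1.42 ± 0.16 (adjusted p = 0.0016). Bcat2, which starts the breakdown of branched-chain amino acids, fell by 0.67 ± 0.08 (adjusted p = 0.00185). Prodh2 of hydroxyproline breakdown fell by 0.60, a call lost without pair 2 (adjusted p = 0.0686). The dopamine-forming Ddc fell by 0.97, with no call without any 1 pair (adjusted p = 0.0822, 0.24 and 0.144). The 1 gene that rose, Tdo2 of tryptophan breakdown, was dim (0.46, control mean 3.86) and not called without pair 2 (adjusted p = 0.0502).

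Among cytochrome P450 genes 4 of 31 were higher and 1 lower, with a median of -0.02 (3, 2 and 3 higher without pair 1, 2 and 3). That is 12.9% and 3.2%, against 7.98% and 3.64% of all genes. Cyp7b1, an oxysterol hydroxylase, measured 6.78, 6.80 and 6.79 in the control and 7.92, 8.25 and 7.78 in the congestive cortices. It rose by 1.20 ± 0.10 (adjusted p = 0.000479), and the 3 control cortices were nearly equal. Cyp4b1 (0.62) and Cyp1b1 (0.81, adjusted p = 0.0755 without pair 2) also rose. Of the conjugating enzymes 4 of 36 were higher (11.1%) and 2 lower (5.6%), not far from the shares over all genes, with a median of -0.14. Without pair 1, 2 and 3 3, 1 and 2 were higher and 2, 1 and 1 lower, and with no pair block 2 were higher and 1 lower. The glutathione transferase Gstp1 measured 8.76, 8.85 and 8.95 in the control and 9.22, 9.63 and 9.80 in the congestive cortices, a rise of 0.70 ± 0.12 (adjusted p = 0.00993, and 0.0755 and 0.0671 without pair 2 and 3). Gsta1, a glutathione transferase of the healthy proximal tubule, measured 11.04 on average in the control and 10.29, 9.52 and 10.17 in the congestive cortices and fell by 1.05 ± 0.27 (adjusted p = 0.0409, with no call when any 1 pair was left out, adjusted p = 0.074, 0.236 and 0.117). In both genes the groups did not overlap. Transcripts of the glutathione transferase family are alike in sequence, and signal shared between members cannot be told apart on these arrays.

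Macrophage markers were higher as a group. Of 31 macrophage and monocyte markers, 26 were higher and 0 lower, with a median of 0.83 (23, 22 and 23 higher without pair 1, 2 and 3). The mean level over these markers was 7.12, 7.22 and 7.26 in the control and 8.09, 8.17 and 8.11 in the congestive cortices, so the groups were clearly apart and the pairs alike. Csf1r, the receptor on which macrophages depend, measured 8.21, 8.10 and 8.19 in the control and 9.46, 9.57 and 9.47 in the congestive cortices and rose by 1.34 ± 0.09 (adjusted p = 0.00024). Mrc1 measured 5.87, 6.19 and 6.42 in the control and 8.36, 8.42 and 8.45 in the congestive cortices. The lysosomal glycoprotein Cd68 measured 7.06, 7.09 and 6.93 in the control and 8.30, 8.36 and 8.17 in the congestive cortices and rose by 1.25 ± 0.16 (adjusted p = 0.00246). In all of these the lowest congestive cortex was above the highest control cortex. The scavenger receptor Cd163, named after its values were seen, was dim and not called (5.35, 5.26 and 5.17 in the control and 5.22, 5.19 and 5.28 in the congestive cortices, -0.03, adjusted p = 0.928).

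Markers of other leukocytes were seldom called, but these lists were dim. Median control levels were 5.8 for T and NK, 5.5 for B and plasma, 5.1 for neutrophil and 4.3 for mast cell genes. Over all genes the median was 6.8. Dim genes were seldom called on these arrays, so missing calls say little about these cells. Of 22 T and NK cell genes 2 were higher and 1 lower, with a median of 0.05. The risers were Cd4, which rat macrophages also carry (1.22 ± 0.09), and the interleukin 7 receptor Il7r (0.90 ± 0.10). Cd28, a costimulatory receptor of T cells, measured 8.19, 8.45 and 8.34 in the control and 7.38, 7.16 and 7.71 in the congestive cortices and fell by 0.91 (adjusted p = 0.00883, and 0.0598 without pair 2). None of 10 B and plasma cell genes was called (0 higher, 0 lower, median -0.03, and Blnk at 0.19, adjusted p = 0.216). Of 14 neutrophil genes 0 were higher and 1 lower, with a median of -0.05. The granule genes S100a9 (-0.10, adjusted p = 0.599) and Mpo (-0.23, adjusted p = 0.159) were dim, with control means of 5.05 and 5.41. The gene that fell, Mmp9 (-0.50), lost its call without any 1 pair (adjusted p = 0.138, 0.122 and 0.153). Of 8 mast cell genes 0 were higher and 0 lower.

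Among chemokines and their receptors 4 of 36 were higher and 3 lower, with a median of 0.04, and the higher count was 2 with no pair block, 7 with dim genes left out and 8 with trend and robust options. The shares in the main fit were 11.1% and 8.3%, against 7.98% and 3.64% of all genes. Without pair 1, 2 and 3 1, 1 and 0 were lower. Ccl6, a chemokine of macrophages, measured 7.50, 7.46 and 8.02 in the control and 9.35, 9.23 and 9.41 in the congestive cortices. It rose by 1.67 ± 0.12 (adjusted p = 0.000282), well clear of the controls. Cx3cl1, the membrane-bound ligand that holds monocytes at the tubule and endothelium, rose from a high level (10.61, 10.77 and 10.40 in the control and 11.29, 11.51 and 11.13 in the congestive cortices), by 0.71 ± 0.07 (adjusted p = 0.00105). The receptors Ccr1 (0.77, dim at a control mean of 3.74) and Ccr2 (0.77) rose, with Ccr2 uncalled when any 1 pair was left out (adjusted p = 0.051, 0.166 and 0.147). Lower were Ccl11 (-0.46, adjusted p = 0.183 and 0.131 without pair 2 and 3), Ccl21 (-0.42, with 0.0703, 0.113 and 0.083 without pair 1, 2 and 3) and Cxcl3 (-0.38, with 0.145 and 0.217 without pair 1 and 3).

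In interleukin and tumor necrosis factor signalling 17 of 44 genes were higher and 0 lower, with a median of 0.25 (13, 8 and 10 higher without pair 1, 2 and 3). The calls with the largest rise were of receptors and feedback genes. Osmr, the oncostatin M receptor, measured 7.73, 7.78 and 7.63 in the control and 9.41, 9.64 and 9.33 in the congestive cortices, a rise of 1.75 ± 0.10 (adjusted p = 0.000158). Its partner Il6st (gp130) rose by 0.67 ± 0.07, and Socs3, the feedback inhibitor that this receptor family switches on, rose by 1.20 ± 0.16. The receptor Tnfrsf1a (0.76) and the inhibitor of apoptosis Birc3 (1.03) rose as well. The cytokines Il6, Tnf and Il1b, named after their values were seen, differed by -0.09, 0.01 and -0.08 and were not called (adjusted p = 0.551, 0.962 and 0.739), at dim control means of 5.04, 6.20 and 5.32.

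Interferon-stimulated genes were higher by less than 2-fold where called. Interferons bind cell surface receptors and lead a complex of STAT proteins and IRF9 to the interferon-stimulated response element (ISRE) in promoters, whose core is GAAA, any 2 bases, GAAA. Of 33 such genes 18 were higher and 0 lower, with a median of 0.38 (13, 7 and 11 higher without pair 1, 2 and 3). Of the 25 genes of this list with a RefSeq promoter entry (assembly GRCr8), 17 (68%) hold this core on either strand in the 250 bases before the start, against 3.14% of the 14564 measured genes with an entry. The stretches around the core in 3 of the genes that rose most are shown 5′ to 3′ on the strand of the gene, with each core in capitals. Ifitm1, which rose most, and Oas2 are not shown, and whether they hold the core is not reported here.
Ifi27, chr6:128355118-128355262, plus strand: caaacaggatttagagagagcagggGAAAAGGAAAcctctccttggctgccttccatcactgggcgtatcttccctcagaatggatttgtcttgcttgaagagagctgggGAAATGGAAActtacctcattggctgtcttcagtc
Parp14, chr11:78408033-78408092, plus strand: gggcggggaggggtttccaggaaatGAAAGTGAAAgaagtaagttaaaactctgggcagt
Ifi44, chr2:243303841-243303891, minus strand: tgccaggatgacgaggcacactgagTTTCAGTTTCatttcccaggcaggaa
Ifi27 holds the core at 2 places, and in Ifi44 it lies in the reverse direction. A match is a description of these letters and not a bound site.

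Ifi27, a membrane protein of mitochondria and the nuclear envelope, measured 10.31, 10.30 and 10.25 in the control and 11.17, 11.29 and 10.90 in the congestive cortices. It rose by 0.84 ± 0.10 (adjusted p = 0.00182) without overlap. Ifitm1, which blocks viral entry, rose by 0.92 ± 0.11, Parp14, an ADP-ribosyltransferase, by 0.76 ± 0.12, Oas2, a sensor of double-stranded RNA, by 0.67 ± 0.09, and Ifi44 by 0.67 ± 0.10. All 5 kept their call without each pair in turn. In antigen presentation 7 of 25 genes were higher and 0 lower, with a median of 0.16 (6, 4 and 4 higher without pair 1, 2 and 3), among them the immunoproteasome subunits Psmb8 (0.61), Psmb9 (0.49) and Psmb10 (0.62), of which Psmb9 lost its call without pair 3 (adjusted p = 0.054) and Psmb10 without pair 2 (0.0558). Cathepsin S, Ctss, which trims the class II invariant chain and is made by macrophages, rose by 0.94 ± 0.10. The class I gene RT1-S3 rose by 0.64, and signal of related class I genes cannot be told apart in it. Macrophage markers rose in the same arrays, and their part in these rises was not tested.

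Among complement genes 11 of 28 were higher and 1 lower, with a median of 0.27. C7, of the membrane attack complex, measured 10.53, 10.54 and 10.52 in the control and 11.53, 11.53 and 11.52 in the congestive cortices. The 3 pairs were almost identical, and the rise was 0.99 ± 0.12 (adjusted p = 0.00185), with an SE that also draws on the outer medulla pairs. Serping1, the inhibitor of the first complement step, measured 9.01, 8.91 and 8.83 in the control and 10.10, 10.13 and 10.08 in the congestive cortices and rose by 1.19 ± 0.07 (adjusted p = 0.000179). The classical pathway genes C1qb (1.07 ± 0.15), made by macrophages, and C1s (0.94 ± 0.07) rose. C8b fell by 0.48, with no call without any 1 pair (adjusted p = 0.0977, 0.19 and 0.131).

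In coagulation and fibrinolysis 10 of 34 genes were higher and 2 lower, with a median of 0.13, and this list held both a very large rise and a very large fall. Fibrinogen is known as a liver product that injured kidney also makes. Its gamma chain Fgg measured 4.35, 4.84 and 4.86 in the control and 6.56, 6.33 and 7.40 in the congestive cortices, and its alpha chain Fga measured 6.46, 6.58 and 6.40 in the control and 7.32, 7.82 and 7.85 in the congestive cortices. Both rose without overlap, Fgg by 2.08 and Fga by 1.19 ± 0.16 (adjusted p = 0.00325). The plasmin receptor pair Anxa2 (1.08 ± 0.12) and S100a10 (0.96 ± 0.13) rose together, as did the thrombin receptor F2r (0.97 ± 0.09). Hrg measured 8.45, 8.86 and 8.67 in the control and 6.89, 5.90 and 7.14 in the congestive cortices, and F13b, the carrier subunit of the clot-crosslinking factor XIII, measured 8.94, 8.90 and 9.13 in the control and 7.57, 7.20 and 7.99 in the congestive cortices. These 2 fell, by 2.02 ± 0.32 and 1.41 ± 0.19, and their groups stood apart.

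Adhesion molecules of leukocytes had 9 of 17 genes higher and 0 lower, with a median of 0.43 (7, 4 and 4 higher without pair 1, 2 and 3). The hyaluronan receptor Cd44, found on leukocytes and on injured tubules, measured 5.71, 5.79 and 5.86 in the control and 6.63, 7.22 and 6.93 in the congestive cortices and rose by 1.14 ± 0.13 (adjusted p = 0.00159). The endothelial ligands Vcam1 (0.65 ± 0.09) and Icam1 (0.53, adjusted p = 0.112 without pair 2 and 0.112 without pair 3) rose. Of 22 endothelial markers 4 were higher and 0 lower, with a median of 0.07 (3, 1 and 1 without pair 1, 2 and 3, and 2 with no pair block). VE-cadherin, Cdh5, measured 8.78, 8.65 and 8.63 in the control and 9.38, 9.32 and 9.25 in the congestive cortices, a rise of 0.63 ± 0.07 (adjusted p = 0.00115). The tip cell genes Apln (0.57) and Esm1 (0.47) were called higher with all pairs and not without pair 2 (adjusted p = 0.0641 and 0.157) or pair 3 (0.0722 and 0.135), and Plvap (0.36) was not called without any 1 pair (0.132, 0.146 and 0.147). Of 9 red cell and platelet genes 0 were higher and 2 lower, namely Slc4a1, which intercalated cells share, and Gp9 (-0.31, adjusted p = 0.107, 0.18 and 0.103 without pair 1, 2 and 3).

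**Figure D4:**
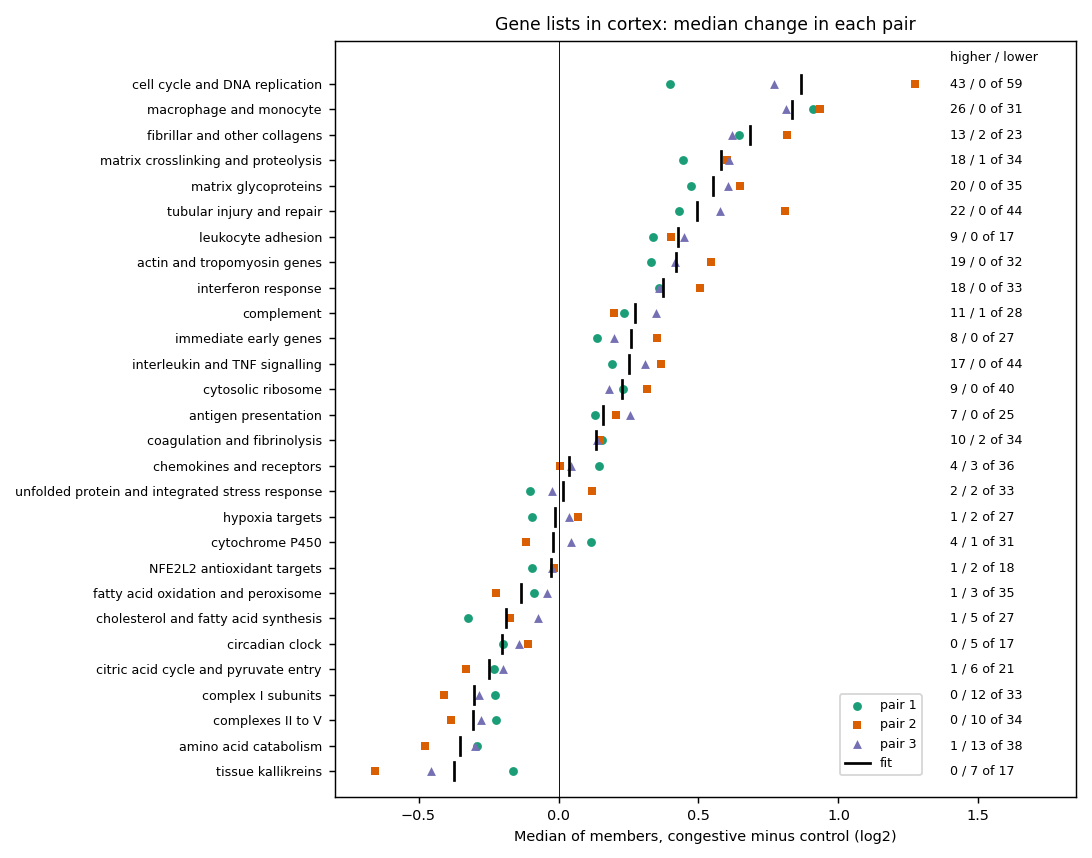
Rows are gene lists, and the horizontal axis is the median change of the measured members (congestive minus control, log2) in pair 1 (circle), pair 2 (square) and pair 3 (triangle) and in the fit over all pairs (bar), with the count of members called higher and lower at the right. Macrophage medians lie close together at 0.91, 0.93 and 0.81, whereas those of the cell cycle list spread over 0.40, 1.27 and 0.77.

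Matrix genes were among the largest rises. Of the collagens 13 of 23 were higher and 2 lower, with a median of 0.68 (13, 12 and 13 higher without pair 1, 2 and 3). The fibrillar collagen Col3a1 measured 8.62, 9.15 and 8.37 in the control and 10.50, 10.77 and 10.35 in the congestive cortices. Col1a1, the main chain of type I collagen, measured 8.24, 8.86 and 7.64 in the control and 9.88, 10.23 and 9.43 in the congestive cortices. The 3 control cortices differed among themselves, pair 2 being highest, and each congestive cortex was above all of them in both genes. The rises were 1.83 ± 0.12 (adjusted p = 0.00021) and 1.60 ± 0.11 (adjusted p = 0.00026). Col11a1 (1.46), Col1a2 (1.41) and Col12a1 (1.36) rose too. The 2 falls were Col4a3 (-0.45) and Col4a4 (-0.49), chains of the adult glomerular basement membrane, and these were lost without pair 1 or 2 for Col4a3 (adjusted p = 0.0818 and 0.139) and without pair 2 or 3 for Col4a4 (0.0648 and 0.0614).

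Among matrix glycoproteins 20 of 35 were higher and 0 lower, with a median of 0.55 (18, 17 and 17 higher without pair 1, 2 and 3). Fn1 measured 8.84, 9.13 and 8.61 in the control and 10.69, 11.29 and 10.72 in the congestive cortices. Fbn1, the scaffold of elastic microfibrils, measured 7.93, 8.22 and 7.59 in the control and 9.57, 9.96 and 9.25 in the congestive cortices, and its partner Mfap4 rose too (1.79 ± 0.16). Fn1 rose by 2.04 ± 0.09 (adjusted p = 5.6e-05) and Fbn1 by 1.68 ± 0.08 (adjusted p = 9.44e-05), with no overlap. Genes of matrix crosslinking and proteolysis had 18 of 34 higher and 1 lower, with a median of 0.58. Lox measured 5.58, 6.50 and 5.46 in the control and 8.25, 8.82 and 7.66 in the congestive cortices, and its relatives Loxl1 (1.32 ± 0.08) and Loxl2 (1.22 ± 0.07) rose with it. The gelatinase Mmp2 measured 7.94, 8.19 and 7.59 in the control and 9.51, 9.67 and 9.51 in the congestive cortices and its inhibitor Timp1 measured 7.18, 7.55 and 7.42 in the control and 9.63, 9.85 and 9.41 in the congestive cortices, both without overlap. The integrins, which couple cells to this matrix, had 8 of 18 higher and 0 lower, with a median of 0.36, and 4, 1 and 4 higher without pair 1, 2 and 3. The fibronectin receptor subunit Itga5 rose by 0.60 ± 0.09 and the mesenchymal Itga8 by 0.92 ± 0.16 (adjusted p = 0.0536 and 0.0839 without pair 1 and 2).

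Of 24 pericyte and myofibroblast markers 11 were higher and 0 lower, with a median of 0.40 (10, 9 and 10 higher without pair 1, 2 and 3). The 2 receptors of platelet-derived growth factor that mark these cells rose alike. Pdgfra measured 8.93, 9.19 and 8.56 in the control and 9.999, 10.24 and 9.97 in the congestive cortices, and Pdgfrb measured 8.62, 8.91 and 8.39 in the control and 9.79, 10.02 and 9.58 in the congestive cortices. Their changes were 1.18 ± 0.10 (adjusted p = 0.000539) and 1.16 ± 0.08 (adjusted p = 0.00021). Of the ligands, Pdgfd rose (6.28, 6.32 and 6.19 in the control and 7.26, 7.996 and 7.57 in the congestive cortices, 1.35 ± 0.14, adjusted p = 0.000962), while Pdgfb, with 7.76, 7.57 and 7.61 in the control and 7.75, 8.002 and 7.89 in the congestive cortices, overlapped and was not called (0.24, adjusted p = 0.148). The small proteoglycans Dcn (1.48 ± 0.10) and Lum (1.34 ± 0.09, dim at a control mean of 4.36) and the intermediate filament Vim (1.22 ± 0.13) rose. The study measured some of these genes further, so they are not independent choices. Of 32 actin and tropomyosin genes 19 were higher and 0 lower, with a median of 0.42 (15, 10 and 11 higher without pair 1, 2 and 3), led after Tagln and Vim by the actin crosslinker Flna (1.23 ± 0.12), the tropomyosin Tpm2 (1.18 ± 0.10) and the myosin light chain Myl9 (1.17 ± 0.11). Macrophage markers rose in the same arrays, and their part in the stromal rises was not tested. Of 9 adipocyte genes 2 were higher and 0 lower, the lipid carrier Fabp4, which endothelium and macrophages also make (5.63, 6.19 and 5.82 in the control and 8.09, 7.68 and 7.44 in the congestive cortices, 1.86 ± 0.20), and its regulator Pparg (0.50, adjusted p = 0.0822 and 0.107 without pair 1 and 2).

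In the transforming growth factor beta and BMP list 7 of 41 were higher and 4 lower, with a median of 0.10. The falls were not stable, with 8, 5 and 5 higher and 0, 1 and 0 lower without pair 1, 2 and 3. Tgfb1, the isoform tied to fibrosis, measured 7.85, 7.94 and 7.89 in the control and 8.60, 8.84 and 8.57 in the congestive cortices and rose by 0.77 ± 0.08 (adjusted p = 0.0011). Bmp6 rose by 1.15 ± 0.11 and the BMP target Id3 by 0.87 ± 0.09. Tgfb2 fell by 0.41, a call lost without any 1 pair (adjusted p = 0.16, 0.0579 and 0.149). Of 53 other growth factors and receptors 11 were higher and 2 lower, with a median of 0.13 (12, 7 and 7 higher without pair 1, 2 and 3). Hgf, a repair factor from stroma for tubules (0.97 ± 0.12), and Angpt2, which loosens vessels (0.77 ± 0.09), rose, and Egf and Vegfb (-0.60 ± 0.09) fell. In the Wnt list 5 of 38 were higher and 1 lower, with a median near 0 (8 higher with dim genes left out and 9 with trend and robust options). The secreted antagonist Sfrp1 measured 8.51, 8.72 and 8.37 in the control and 10.06, 10.50 and 9.89 in the congestive cortices and rose by 1.62 ± 0.10 (adjusted p = 0.000179), while its relative Sfrp2 measured 8.39, 8.75 and 8.65 in the control and 7.76, 7.33 and 7.61 in the congestive cortices and fell by 1.03 ± 0.13 (adjusted p = 0.00278). The groups of these 2 genes stood apart in opposite directions. The Wnt target Axin2 rose by 0.68 ± 0.09, and the inhibitors Dkk2 (0.84) and Dkk3 (0.97) rose.

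Genes of tubular injury and repair had 22 of 44 members higher and 0 lower, with a median of 0.49 (23, 17 and 19 higher without pair 1, 2 and 3). The list holds genes that the study picked on these arrays, so its direction is not independent evidence. After Havcr1, Spp1, Clu and Timp1 the largest rise was that of ceruloplasmin, Cp, a copper-binding ferroxidase, which measured 8.91, 9.12 and 8.83 in the control and 10.68, 11.04 and 10.83 in the congestive cortices. It rose by 1.90 ± 0.10 (adjusted p = 0.000119), and the groups were far apart. Lcn2 (NGAL), another widely used injury marker, measured 5.13, 5.55 and 5.75 in the control and 5.69, 5.70 and 5.63 in the congestive cortices. Its groups overlapped and it was not called (0.20, adjusted p = 0.555).

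Genes of cell division were higher in every pair but to unequal extents. All 59 measured genes of the cell cycle and DNA replication list had positive changes, and 43 were called higher (0 lower), with a median of 0.87. In 55 of them the groups did not overlap, against 34% of all genes in either direction. The median change was 0.40, 1.27 and 0.77 in pairs 1, 2 and 3. The calls rested on pair 2 and, less, on pair 3, with 41, 9 and 14 higher without pair 1, 2 and 3. The proliferation antigen Mki67, named after its values were seen, measured 9.16, 8.83 and 8.09 in the control and 9.88, 10.41 and 9.50 in the congestive cortices, so its lowest congestive level was above its highest control level, which was in pair 1 (adjusted p = 0.0068, and 0.059 without pair 2). The mitotic checkpoint kinase Ttk measured 5.62, 4.86 and 4.73 in the control and 6.68, 7.43 and 6.42 in the congestive cortices. It rose by 1.78 ± 0.28 (adjusted p = 0.00638). Also kept without each pair were the spindle proteins Nusap1 (1.14 ± 0.15), Kif23 (1.07 ± 0.17) and Kif2c (0.997 ± 0.19) and the mitotic kinase Plk1 (0.99 ± 0.15).

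Late cell cycle genes are known to be controlled through CCAAT boxes, bound by NF-Y, and a downstream element read by the DREAM and MuvB complexes, TTTGAA. In the 250 bases before the start, 31 of the 47 cell cycle genes with a promoter entry held CCAAT on either strand (66%), against 35.1% of all measured genes with one, and 13 held TTTGAA (27.7%), against 14.4%. The stretches around these letters are shown for 4 of the 5 genes above, with CCAAT (or its reverse complement) and TTTGAA in capitals, 5′ to 3′ on the strand of the gene (GRCr8).
Ttk, chr8:93634547-93634638, plus strand: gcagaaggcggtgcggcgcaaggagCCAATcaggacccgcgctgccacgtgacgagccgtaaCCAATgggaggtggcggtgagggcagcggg
Nusap1, chr3:127057077-127057259, plus strand: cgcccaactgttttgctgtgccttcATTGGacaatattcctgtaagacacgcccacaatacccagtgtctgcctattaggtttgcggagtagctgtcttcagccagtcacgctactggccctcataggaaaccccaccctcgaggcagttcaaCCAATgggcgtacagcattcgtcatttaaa
Kif23, chr8:71320633-71320697, minus strand: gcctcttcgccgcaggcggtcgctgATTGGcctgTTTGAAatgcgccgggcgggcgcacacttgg
Plk1, chr1:186147595-186147649, plus strand: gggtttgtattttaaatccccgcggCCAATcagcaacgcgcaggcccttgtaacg
Only Kif23 among these 4 held both letters in the window, a few bases apart, and Ttk and Nusap1 held CCAAT at 2 places. The window of the fifth gene, Kif2c, held neither, which says no more than that these letters are not in it.

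**Figure D5:**
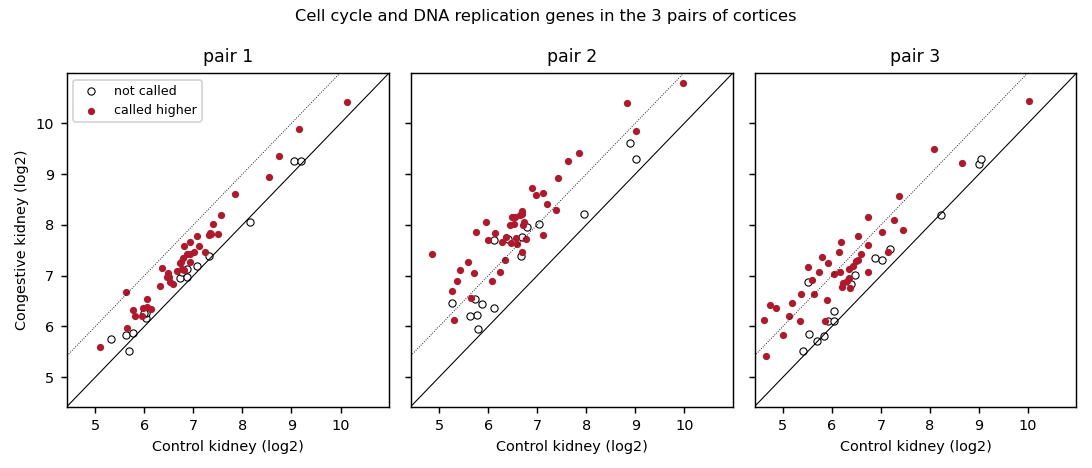
Each panel is 1 pair of cortices, and each point is 1 gene of the cell cycle list, with its level in the control kidney (log2, horizontal axis) and in the congestive kidney (log2, vertical axis). The solid line marks equal levels and the dotted line a 2-fold rise, and genes called higher over the 3 pairs are red. The points lie closest to the line of equal levels in pair 1 and farthest from it in pair 2.

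Genes of p53 signalling and cell death had 10 of 26 higher and 1 lower, with a median of 0.25 (8, 4 and 4 higher without pair 1, 2 and 3, and 6 on cortex arrays alone). Casp12, a caspase of the endoplasmic reticulum in rodents, rose by 1.18 ± 0.11, the inflammasome caspase Casp1 by 0.87 ± 0.08 and Mlkl, which carries out necroptosis, by 0.61 ± 0.09. The cyclin Ccng1, a p53 target, fell by 0.42, with no call without any 1 pair (adjusted p = 0.0697, 0.127 and 0.0789). Of the hypoxia targets 1 of 27 was higher and 2 were lower, with a median of -0.01: Car9 differed by 0.42, Ankrd37 by -0.54 and Pgk1 by -0.31. None of the 3 kept its call in every fit without a pair (adjusted p = 0.0907, 0.11 and 0.103 for Car9 and 0.117 and 0.115 without pair 2 and 3 for Ankrd37). Vegfa, the best known of these targets, named after its values were seen, measured 10.33, 10.23 and 10.27 in the control and 10.27, 10.15 and 10.26 in the congestive cortices, with overlapping groups and no call (-0.05, adjusted p = 0.726). Of the unfolded protein and integrated stress response genes 2 of 33 were higher and 2 lower, with a median of 0.02 (0, 0 and 1 higher and 2, 0 and 0 lower without pair 1, 2 and 3), among them the asparagine synthetase Asns (0.48, adjusted p = 0.0581 and 0.102 without pair 1 and 2) and the serine synthesis enzyme Phgdh (-0.69, with 0.0916 and 0.0916 without pair 2 and 3). The shares of this list were 6.1% and 6.1%, against 7.98% and 3.64% of all genes.

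Immediate early genes answer growth factors and stretch within minutes, in part through serum response factor at CArG boxes. Of 27 such genes 8 were higher and 0 lower, with a median of 0.26 (5, 2 and 3 higher without pair 1, 2 and 3, and 4 on cortex arrays alone). The zinc finger factor Egr1 measured 6.71, 7.57 and 7.51 in the control and 8.13, 8.95 and 8.65 in the congestive cortices. The pairs differed in level but each rose, by 1.31 ± 0.11 in the fit (adjusted p = 0.000462). Klf6 rose by 0.61 ± 0.09. Egr2 (0.97), Fos (0.79) and Myc (0.95) were called with all pairs, and Egr2 was not called without pair 1 or 2 (adjusted p = 0.0657 and 0.0986), nor Fos and Myc without pair 2 (0.112 and 0.128) or 3 (0.0559 and 0.0628). CArG boxes were found before the start of 5 of the 18 listed genes with an entry (27.8%), against 1.26% of all measured genes with one. The stretches of Egr1 and Egr2 are shown with the boxes in capitals (GRCr8, strand of the gene).
Egr1, chr18:26736948-26737029, plus strand: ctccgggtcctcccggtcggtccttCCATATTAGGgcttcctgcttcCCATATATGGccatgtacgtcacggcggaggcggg
Egr2, chr20:21054490-21054549, minus strand: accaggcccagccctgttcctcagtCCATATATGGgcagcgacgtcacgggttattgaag
Egr1 held 2 boxes in this window and Egr2 held 1.

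Genes that set vessel tone and sodium excretion changed on both sides. Tissue kallikreins, a family of serine proteases, had 7 of 17 genes lower and 0 higher, with a median of -0.38 (8, 3 and 3 lower without pair 1, 2 and 3, and 4 with dim genes left out). Many of them were dim, with a median control level of 5.33. Klk1, the member known to release kinins in the connecting tubule, measured 11.77, 11.81 and 11.71 in the control and 10.44, 8.91 and 8.88 in the congestive cortices. It fell by 2.35 ± 0.44, least in pair 1 (adjusted p = 0.0133, but 0.103 without pair 2 and 0.0754 without pair 3). Klk1c10 measured 8.93, 7.92 and 7.36 in the control and 6.12, 5.24 and 4.51 in the congestive cortices. It and Klk1c9 (-2.39 ± 0.21) and Klk1c3 (-2.06 ± 0.14) kept their calls without each pair, and no groups overlapped. Klk1b3 fell by 1.13 (adjusted p = 0.0341, and 0.183 and 0.159 without pair 2 and 3). Rat kallikrein genes are near copies of each other, and the share of signal that one row takes from another cannot be told apart here.

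Of the prostaglandin, endothelin and nitric oxide genes 11 of 34 were higher and 1 lower, with a median of 0.06 (10, 7 and 7 higher without pair 1, 2 and 3). Ptgs2, which in cortex is made mainly by the macula densa and the nearby thick ascending limb, measured 8.69, 8.44 and 8.81 in the control and 7.38, 6.47 and 7.15 in the congestive cortices. It fell by 1.65 ± 0.15 (adjusted p = 0.000685) with no overlap. Pappa2, a protease that is also found in the macula densa in rat and was named after its values were seen, measured 6.39, 6.22 and 6.61 in the control and 5.41, 5.01 and 5.36 in the congestive cortices and fell by 1.15 ± 0.10 (adjusted p = 0.000479), likewise without overlap. The prostaglandin-degrading enzyme Hpgd rose by 1.29 ± 0.15 (adjusted p = 0.00175), and the phospholipase Pla2g4a, which frees the substrate of prostaglandin synthesis, by 0.76 ± 0.11. Both subunits of soluble guanylate cyclase, the nitric oxide receptor, rose: Gucy1b1 measured 8.20, 8.35 and 8.12 in the control and 9.53, 9.65 and 9.24 in the congestive cortices (1.25 ± 0.09, adjusted p = 0.00026), and Gucy1a1, which pericytes carry as well, rose by 1.07 ± 0.08. Endothelin 1, Edn1, rose by 0.64 ± 0.10 (adjusted p = 0.00635).

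In the angiotensin and natriuretic peptide list 3 of 19 genes were higher and 0 lower, with a median of -0.04, and 1, 0 and 0 were higher without pair 1, 2 and 3. With no pair block 1 was higher and 1 lower. The 3 were Ace, the angiotensin-converting enzyme (6.98, 7.001 and 6.78 in the control and 7.43, 7.38 and 7.80 in the congestive cortices, 0.62 ± 0.14, adjusted p = 0.0248), and the natriuretic peptide receptors Npr1 (0.38) and Npr2 (0.57). Ace and Npr1 were not called without any 1 pair (adjusted p = 0.0515, 0.0558 and 0.112 and 0.0584, 0.105 and 0.0751), nor Npr2 without pair 2 or 3 (0.0844 and 0.071).

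Of 17 genes of the circadian clock 5 were lower and 0 higher, with a median of -0.20, but 1, 1 and 1 were called lower without pair 1, 2 and 3 and 0 with no pair block, where the fit had no term for the rat. Dbp, an output of the clock, measured 9.79, 9.80 and 11.38 in the control and 9.50, 9.40 and 11.02 in the congestive cortices. In pair 3 both kidneys stood well above those of pairs 1 and 2, and within pairs the differences were -0.29, -0.40 and -0.37 (adjusted p = 0.0364, and 0.081, 0.182 and 0.156 without pair 1, 2 and 3). Bmal1, which peaks at the opposite phase and was named after its values were seen, measured 8.73, 8.50 and 6.36 in the control and 8.65, 8.47 and 6.94 in the congestive cortices, so in pair 3 both kidneys stood below the others. It was not called (0.15, adjusted p = 0.617). The time of day at which each rat was killed is not given in the sources used here, and its part in these values was not tested. The transcriptional repressor Ciart had the lowest p of the list, with 5.86, 5.66 and 6.70 in the control and 5.42, 5.10 and 6.004 in the congestive cortices, and fell by 0.56 ± 0.09 (adjusted p = 0.00598, and 0.0507 without pair 3). Factors of the clock bind the E-box CACGTG, which 5 of 16 listed genes with an entry hold before the start (31.2%), against 6.89% of all measured genes with one. Ciart is shown because it holds this box at 3 places.
Ciart, chr2:186112247-186112364, minus strand (GRCr8): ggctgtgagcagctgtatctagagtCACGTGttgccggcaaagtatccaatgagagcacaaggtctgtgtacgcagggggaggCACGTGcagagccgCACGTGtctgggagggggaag

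MicroRNA genes were measured through their precursor or primary transcripts, and these rows do not tell mature arms apart. Of 352 measured genes with a RefSeq microRNA entry 6 were higher (1.7%) and 6 lower (1.7%), against 7.98% and 3.64% of all genes. Their median control level was 4.65. A mature microRNA pairs with its targets mainly through bases 2 to 8, the seed, which is in capitals below (GRCr8). Only 3 families with called genes are shown, named after their values were seen, and the other called microRNA genes are not named here. The 3 were picked because miR-21 and miR-29 are known for their part in renal fibrosis, the latter as a repressor of collagens, and miR-223 as a product of myeloid cells.
rno-miR-21-5p, chr10:71902653-71902674, minus strand: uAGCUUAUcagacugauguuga
rno-miR-223-3p, chrX:65151450-65151470, plus strand: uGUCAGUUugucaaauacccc
rno-miR-29b-3p, chr13:109098882-109098904, plus strand: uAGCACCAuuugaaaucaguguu
rno-miR-29c-3p, chr13:109099412-109099433, plus strand: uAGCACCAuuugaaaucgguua
The 2 members of the miR-29 family share the seed and lie close together on chromosome 13.

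Mir21 measured 6.42, 6.10 and 6.52 in the control and 6.99, 7.31 and 7.07 in the congestive cortices, a rise of 0.78 ± 0.13 (adjusted p = 0.00759). Mir223 measured 4.57, 4.72 and 4.71 in the control and 5.09, 5.37 and 5.64 in the congestive cortices, a rise of 0.70 ± 0.09 (adjusted p = 0.00285). Both kept their calls without each pair, and neither had overlapping groups. Mir29b2 measured 5.07, 4.63 and 5.60 in the control and 4.35, 3.32 and 4.54 in the congestive cortices and fell by 1.03 ± 0.21 (adjusted p = 0.018, but 0.128 and 0.0825 without pair 2 and 3). Mir29c, its neighbour, measured 6.10, 6.43 and 6.44 in the control and 5.83, 6.04 and 5.84 in the congestive cortices and fell by 0.42 ± 0.09 (adjusted p = 0.0195, but 0.0978 and 0.132 without pair 2 and 3). The other cluster of the family, on chromosome 4, was dimmer and not called, with -0.46 for Mir29a (adjusted p = 0.123) and -0.23 for Mir29b1 (adjusted p = 0.139).

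The change in cortex was last set against that in outer medulla, where the same ligation was studied. The difference of the changes passed for 294 genes (1.62%), of which 148 had the more positive and 146 the more negative change in cortex. In Ptgs2 the regions moved apart, with a change of -1.65 in cortex and 0.53 in outer medulla (difference -2.18 ± 0.21, adjusted p = 0.00707). Pappa2 fell in cortex and differed little in outer medulla (adjusted p = 0.991 there, difference -1.14, adjusted p = 0.0125). The kallikreins Klk1c3 (difference -2.04, adjusted p = 0.00743), Klk1c9 (-1.97, 0.0238) and Klk1c10 (-2.05, 0.0434) and the uromodulin homolog Gp2 (-2.49, 0.0145) had the more negative change in cortex, as had Umod itself (-1.15 ± 0.15, adjusted p = 0.0146), which changed by -0.71 in outer medulla.

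Spp1 rose in both regions but by 2.97 in cortex and 1.10 in outer medulla (difference 1.87 ± 0.17, adjusted p = 0.00663). Tmed6, of protein transport from the endoplasmic reticulum, measured 6.19, 6.39 and 6.04 in the control and 7.65, 8.15 and 7.88 in the congestive cortices. It rose by 1.69 ± 0.14 in cortex and differed by -0.16 in outer medulla (difference 1.84, adjusted p = 0.00885). Serping1 (0.78) and Egr1 (0.96) also had the more positive change in cortex (adjusted p = 0.0146 and 0.0287). Collagen and stromal rises were smaller in cortex for Col1a1 (-1.03, adjusted p = 0.0265), Loxl2 (-1.05, 0.00696), Fbn1 (-0.71, 0.0293) and Tcf21 (-0.91, 0.0146), and among macrophage and adhesion genes for Mrc1 (-0.88, 0.0287), Ms4a4a (-1.13, 0.0363) and Vcam1 (-1.05, 0.0142). With only 3 rats used, arrays of both regions come from the same animals, which the model has no term for. Whether equal numbers mark the same rat in both regions is not stated. The count of genes whose change differed was 95, 67 and 60 without pair 1, 2 and 3.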

How the data were processed

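The arrays were Rat Gene 2.0 ST GeneChips, for which the authors deposited 1 table of 36685 rows and 12 arrays of log2 values normalized between arrays with Affymetrix Expression Console. Its version and summarization and the base of the logarithm, taken as 2, are not given in these sources. Signal over background is unknown, and 3 arrays per group limit the precision. Of the rows, 18511 carry 1 symbol, 575 several and 17599 none. The brightest row of a symbol stood for its gene (345 rows left out), leaving 18166 genes, dim ones included. For both arrays of pair 3 the title and another label disagree on the number, and the title was used.

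Congestive minus control was fitted with limma 3.58.1 in R 4.3.3 over all 12 arrays with 6 pair blocks and default eBayes (4 residual and 3.96 prior degrees of freedom), with contrasts for cortex and for cortex minus outer medulla, and p-values were adjusted over all genes by the method of Benjamini and Hochberg. The fit was tested on simulated data. Pairs follow the design, which compares the kidneys within rats. As a check, residuals of same-numbered arrays correlated across genes with r of -0.0003, 0.137 and 0.344, so pair 1 is not visible in the values. That the numbers mark the rat is an inference from the labels.

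The genes and lists were chosen with earlier results of these data known, by fixed rules: the 12 largest rises and falls, up to 5 called members of each list per direction, the 2 brightest members of a list with fewer than 2 calls, the 6 largest regional differences each way, and genes that the study names, not all of which are reported here. Genes outside these rules, named after their values were seen, are marked so in the text, and Slc7a13, Slc12a1, Slc12a3, S100a9 and Mpo belong to them as defining markers. Motifs were searched in 250 bases before the start. Genes without a row of 1 symbol are not analysed here. Alternatives are given in the closing section.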

Additional observations from a re-analysis of the deposited data

Results flagged for a closer look

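The change in cortex differed from the change in outer medulla (difference of the log2 changes, cortex minus outer medulla, adjusted p below 0.05 in limma) for genes described above or named under the rules. The most negative differences were those of Syt10 (-2.68), Gp2 (-2.49), Guca2a (-2.34), Fgf7 (-2.22), Ptgs2 (-2.18), Adamts17 (-2.18), Klk1c10 (-2.05), Klk1c3 (-2.04) and Klk1c9 (-1.97). For Syt10 the changes were -0.14 in cortex and 2.54 in outer medulla, for Guca2a -0.05 and 2.29, for Fgf7, a stromal growth factor for epithelium, 0.23 and 2.45, and for Adamts17 -0.16 and 2.02.

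Among tubular genes Gldc (-1.26), Umod (-1.15), Pappa2 (-1.14) and Wnk1 (-0.75) had the more negative change in cortex, and Fxyd4 (0.82), a regulator of the sodium pump in the collecting duct, and Cldn19 (0.93) the more positive. Among macrophage, adhesion and complement genes the difference was negative for Ms4a4a (-1.13), Vcam1 (-1.05), Mrc1 (-0.88) and C7 (-0.91) and positive for Serping1 (0.78).

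Stromal, matrix, growth factor and podocyte genes with a negative difference were Loxl2 (-1.05), Col1a1 (-1.03), Tcf21 (-0.91), Col12a1 (-0.89), Kirrel1 (-0.87), Col1a2 (-0.85), Tgfb2 (-0.81), Pdgfra (-0.75), Fbn1 (-0.71), Dkk2 (-0.67) and Cdh11 (-0.66), while that of Lum was positive (0.93). Esm1 (0.86), Gstp1 (0.92), Egr1 (0.96), Ace (1.07) and the fatty acid oxidation enzyme Eci1 (0.82) were positive too.

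The most positive differences were those of Slc22a13 (2.10), Cyp1a1 (1.99), Spp1 (1.87), Grpr (1.85), Tmed6 (1.84), Anxa13 (1.81) and the P450 enzyme Cyp2j4 (1.22). Slc22a13, an organic anion transporter, changed by 0.29 in cortex and -1.81 in outer medulla, Cyp1a1, a target of the aryl hydrocarbon receptor, by -0.10 and -2.08, Grpr, a receptor of gastrin-releasing peptide, by -0.23 and -2.08, and Anxa13 by -0.24 and -2.06.

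Rows without a gene symbol, which no comparison above uses, also held calls: in a fit over all rows 173 of them passed with a rise and 110 with a fall in cortex.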

How the results depend on the processing

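With no pair block 1328 genes were called higher and 606 lower, of which 1181 and 469 were among the 1449 and 661 called with it. Without 1 pair the counts ranged from 602 to 1167 higher and from 131 to 394 lower, lowest without pair 2. Genes called lower were 992 under eBayes with trend and robust options. The methods' t-test, unpaired, gave 2317 higher and 2147 lower at their threshold and 119 and 64 after Benjamini-Hochberg adjustment. In paired form it gave 1683 higher and 1796 lower at that threshold and 0 and 0 after adjustment. The count of genes whose change differed between the regions was 149 when the pair was not a block, 785 under trend and robust moderation, and 60 to 95 without 1 pair.

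Of the 198 called genes named in the text, none changed direction under the alternatives run. For fits on the same values this was fixed in advance, since each called gene moved the same way in every pair. The call was kept by 166 with no pair block, 185 on cortex arrays alone, 194 after quantile normalization, 195 with arrays centred on their median, 191 with trend and robust options and all 198 with the mean of rows, and by 161, 135 and 147 without pair 1, 2 and 3. The filter on dim genes left 188 of them in the test, and all 188 kept the call. Counts of list members called in 1 direction moved down by more than 1.5 times for 32 of 80, 55 of 79 and 51 of 80 counts without pair 1, 2 and 3. With trend and robust options 20 of 81 and with dim genes left out 17 of 84 moved up by more than this, and with no pair block 18 of 80 moved down and 4 up. Signal over background is not known for these values, so a dim gene that was not called may lie below what the arrays can show. Only 3 rats were used, both kidneys of a rat share its circulation, and RNA of whole cortex mixes cell types.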

Other observations

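Genes of the cytosolic ribosome had 9 of 40 members higher and 0 lower, with a median of 0.23 and 3, 2 and 2 higher without pair 1, 2 and 3, 5 on cortex arrays alone, 18 with dim genes left out and 24 with trend and robust options. Rpl3, a core protein of the large subunit, measured 10.45, 10.45 and 10.59 in the control and 10.90, 11.14 and 11.07 in the congestive cortices and rose by 0.54 ± 0.08 (adjusted p = 0.00428). Lysosomal genes had 5 of 29 higher and 1 lower, with a median near 0 (5 lower with dim genes left out or with trend and robust options). The collagen-degrading cathepsin Ctsk rose by 1.14 ± 0.07, whereas Lgmn, a protease of the proximal tubule, fell by 0.38 (adjusted p = 0.0181, and 0.0546, 0.124 and 0.0711 without pair 1, 2 and 3). In cholesterol and fatty acid synthesis 1 of 27 was higher and 5 were lower, with a median of -0.19 (2, 1 and 2 lower without pair 1, 2 and 3, and 8 with dim genes left out or with trend and robust options). The cholesterol exporter Abca1 rose by 0.94 ± 0.10, and the sterol regulators Srebf1 (-0.52) and Insig1 (-0.58, adjusted p = 0.062 without pair 2) fell.

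Among claudins and junction genes 5 of 28 were higher and 1 lower, with a median of 0.13 (5, 2 and 2 higher without pair 1, 2 and 3, and 3 on cortex arrays alone). The mesenchymal cadherin Cdh11 measured 7.89, 8.40 and 7.69 in the control and 9.61, 9.86 and 9.34 in the congestive cortices, a rise of 1.61 ± 0.08 (adjusted p = 0.000121), with no overlap. Of the nephron transcription factors 0 of 28 were higher and 2 lower, with a median of -0.08, one of them Lhx1 (-0.47, adjusted p = 0.0571, 0.139 and 0.108 without pair 1, 2 and 3). Iron-handling genes had 4 of 22 higher and 1 lower, with a median of 0.04. Next to Cp, its membrane-bound relative Heph rose by 0.75 ± 0.08 and the haem scavenger Hpx by 0.65 ± 0.08. Targets of NFE2L2 had 1 of 18 higher and 2 lower, with a median of -0.03 (4 and 5 with trend and robust options, and 0, 0 and 0 lower without pair 1, 2 and 3), and the glutathione peroxidase Gpx2 was the riser (1.10, adjusted p = 0.0994 and 0.0769 without pair 2 and 3).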
